A study of Mus musculus with 26 samples.

Results

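The genes described here are 7 ligands (*Areg*, *Ereg*, *Btc*, *Hbegf*, *Tgfa*, *Egf* and *Nrg1*) and 3 receptors (*Egfr*, *Erbb2* and *Erbb3*) of the epidermal growth factor (EGF) family, 10 of the 55487 genes in the count table of the series. They were taken by name as members of this family. The family was picked because the ligand *Areg* was among the genes with the largest rises in the mutant intestine, so the *Areg* values are given as a description without a test. The other 9 members were not chosen by their values, but they were listed with results of these libraries known.

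Ligands of the EGF family are made as membrane proteins, and metalloproteases cut them off the cell surface. The released ligands bind receptor tyrosine kinases, which pair with each other and signal through RAS, MAP kinases and PI3 kinase. *Egfr* binds amphiregulin, epiregulin, betacellulin, HB-EGF, TGF-α and EGF, and *Erbb3* binds some neuregulins, among them the product of *Nrg1*. *Erbb2* has no known ligand of its own and acts as a partner of the other receptors. In the intestine the pathway is known for its part in crypt proliferation and in the regrowth of the epithelium after injury.

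The libraries read the 3′ ends of transcripts in whole pieces of the proximal small intestine (SI) of adult C57BL/6N mice, and each mouse gave 1 library. Knockout mice carry floxed alleles of the targeted gene and a Villin-creERT2 transgene, whose Cre acts in intestinal epithelial cells (IECs) after tamoxifen. The controls carry the same floxed alleles but not the transgene, so loss of the gene and the presence of active Cre cannot be told apart. Both genotypes received 5 daily injections of tamoxifen at an age of 8 to 12 weeks. GEO's labels call the genotypes tg and wt. Mice were examined 3 days (7 knockout and 7 control mice) or 7 days (6 and 6) after the last injection. A piece holds epithelium, lamina propria and muscle, so that fewer cells of a type and less RNA per cell cannot be told apart, and the cells that made a transcript were not identified. Levels are given as CPM, the counts of a gene scaled by the total of its library, and log2 fold changes come from edgeR with the standard error (SE). An adjusted p under 0.05 over all genes tested was taken as past the threshold. Since tags are counted at 3′ ends, levels are compared between mice and not between genes.

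Libraries held between 3720168 and 6338016 counts. Several libraries stood apart by markers of neighbouring tissue. The summed level of the Brunner gland markers *Muc6* and *Tff2* and of 6 stomach markers was over 1000 CPM in knockout replicate 1 of day 3 (33500 CPM), control replicates 5 and 7 of day 3 (67200 and 8890 CPM) and control replicate 2 of day 7 (32900 CPM). In knockout replicate 1 of day 3 the 5 enterocyte markers summed to 382 CPM, against 522 to 5952 CPM in the other 13 libraries of that day. Pancreatic acinar markers, such as *Prss2* and *Cpa1*, summed to over 1000 CPM in 7 further libraries. These were knockout replicate 2 and control replicates 1, 2 and 3 of day 3, and knockout replicate 4 and control replicates 1 and 4 of day 7. Fits without them hold fewer mice, and whether the tissue or the number of mice shifts a call was not tested. Epithelial markers were present in every library, with *Epcam* between 282 and 918 CPM.

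In the GRCm38 annotation *Epgn*, *Ereg*, *Areg* and *Btc* lie next to each other within 376 kb of chromosome 5. *Ereg* is at chr5:91074622-91093646 and *Areg* at chr5:91139599-91148432, both on the plus strand, and *Btc* is at chr5:91357261-91402994 on the minus strand. The other members lie elsewhere, *Egf* on chromosome 3, *Tgfa* on 6, *Nrg1* on 8, *Erbb3* on 10, *Egfr* and *Erbb2* on 11 and *Hbegf* on 18. The promoters of *Areg* and *Btc* are shown because these neighbours were the only members whose groups did not overlap at both days. They are the 250 bases before the start of each gene in RefSeq (GRCm38.p6), printed 5′ to 3′ on the gene's own strand, at chr5:91139349-91139598 for *Areg* and chr5:91402995-91403244 for *Btc*. The capitals mark a cyclic AMP response element (CRE, TGACGTCA).

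Areg: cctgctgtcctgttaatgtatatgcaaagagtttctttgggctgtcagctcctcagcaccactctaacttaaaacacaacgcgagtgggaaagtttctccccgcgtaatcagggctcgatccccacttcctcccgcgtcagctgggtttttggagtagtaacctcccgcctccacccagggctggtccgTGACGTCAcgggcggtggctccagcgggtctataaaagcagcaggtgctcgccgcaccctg
Btc: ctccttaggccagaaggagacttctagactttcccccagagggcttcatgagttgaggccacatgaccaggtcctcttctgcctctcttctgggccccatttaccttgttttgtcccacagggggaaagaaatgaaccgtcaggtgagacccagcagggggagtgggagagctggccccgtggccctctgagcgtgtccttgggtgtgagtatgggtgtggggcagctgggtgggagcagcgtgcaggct

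The CRE of *Areg* lies 61 to 54 bases before the start and, being a palindrome, reads the same on both strands. Promoters were available for 6 of the 10 members, 7 in all, and only that of *Areg* had a CRE. Of all 32851 promoters 1.55% had one. Nothing is read from this share, since the family was picked for *Areg*. Of 3 other motifs searched on both strands, the AP-1 motif TGANTCA (6.75% of all promoters) and the CARE motif TGATGNAA (3.45%) were in none of the 7, and the TEAD motif GGAATG (12.6%) was in that of *Erbb2*. A match is a run of letters and not a measured binding site.

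*Areg* encodes amphiregulin, a ligand of *Egfr*. At 3 days its lowest, median and highest levels were 14.5, 146 and 318 CPM in knockout mice and 2.6, 4.98 and 9.41 CPM in controls. At 7 days they were 810, 958 and 1255 CPM in knockout mice and 12.7, 16.1 and 21.4 CPM in controls. All knockout mice lay above all controls of their day, and the knockout mice of day 7 lay above every other mouse. The lowest knockout of day 3 was replicate 1, the library rich in Brunner gland markers and poor in enterocyte markers, at 14.5 CPM where the other 6 had 121 CPM or more. The part of this tissue mix in the low value was not tested. It was also the only knockout library that fell among the controls of day 7.

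The fitted log2 fold change of *Areg* was 5.13 (SE 0.53) at 3 days and 5.88 (SE 0.17) at 7 days, or 35-fold and 59-fold. It had rank 2 of the 20760 genes tested at 3 days by log2 fold change and rank 8 of 20259 at 7 days. When only called genes averaging 100 counts or more were ranked, it had rank 1 of 182 at 3 days and rank 6 of 4135 at 7 days. These ranks are a description too, since the family was picked for this rise. Leaving out each mouse in turn gave 4.82 to 5.37 at 3 days and 5.79 to 6.0 at 7 days. The difference between the effects of the days was 0.78 on the log2 scale (SE 0.55).

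**Figure D1:**
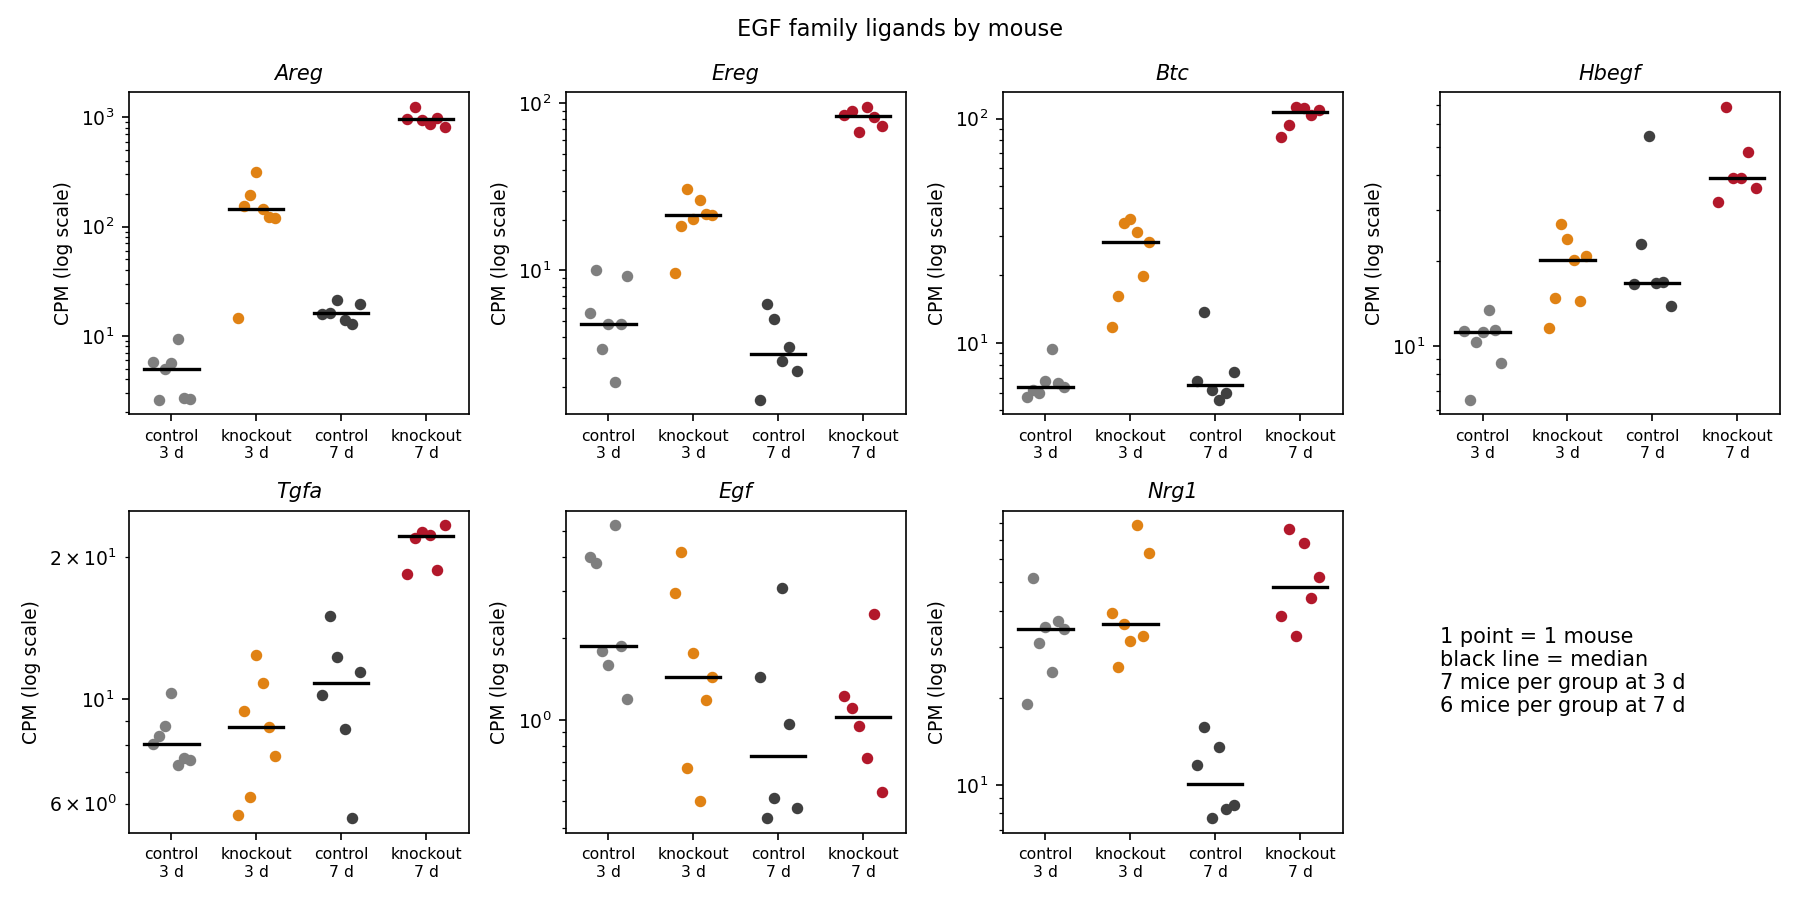
CPM (log scale) of the 7 ligands by genotype and day, with a point per mouse and a line at the median of each group. *Areg* of knockout mice sits between 14.5 and 318 CPM at 3 days and between 810 and 1255 CPM at 7 days, above the controls of the same day, while *Egf* stays at or below 5.24 CPM with overlapping groups.

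Of the 9 other members, 3 ligands were past the threshold at 3 days, all higher in knockout mice, and none was lower. Over all genes 1.43% were past it at 3 days (1.11% higher). The median log2 fold change was 0.20 over these 9 members and -0.03 over all genes tested. At 7 days 5 ligands were higher and 2 receptors lower, where 38.5% of all genes were past the threshold (19.7% higher and 18.8% lower), and the median was 0.89 against -0.02. Nothing is read from these shares, since *Areg* had drawn attention to the family in the same comparisons.

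*Ereg*, which encodes epiregulin, had lowest, median and highest levels of 9.67, 21.5 and 30.6 CPM in knockout mice and 2.15, 4.79 and 10 CPM in controls at 3 days. The groups overlapped only through knockout replicate 1, which lay just under the highest control. At 7 days the levels were 67.4, 83.8 and 95.3 CPM against 1.69, 3.18 and 6.3 CPM, with no overlap. *Ereg* rose by a log2 fold change of 2.01 at 3 days (SE 0.29, adjusted p = 0.0014) and of 4.53 at 7 days (SE 0.21, adjusted p = 7.7e-12). The gene *Gm19610* overlaps its exons on the opposite strand and had at most 17 counts in a library.

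*Btc*, which encodes betacellulin, was at 11.8, 28.1 and 35.6 CPM in knockout mice and at 5.76, 6.37 and 9.41 CPM in controls at 3 days. At 7 days the values were 82.5, 106 and 113 CPM against 5.58, 6.46 and 13.7 CPM. The groups did not overlap at either day, where 0.848% of all genes had no overlap at 3 days (0.356% with the knockout mice above) and 22.6% at 7 days (11.0% above and 11.6% below). The rises were 2.02 on the log2 scale at 3 days (SE 0.24, adjusted p = 1.9e-04) and 3.79 at 7 days (SE 0.17, adjusted p = 6.4e-12). The highest control of each day was a library with high Brunner gland markers, replicate 5 at 3 days and replicate 2 at 7 days, and the part of these markers in its level was not tested.

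*Hbegf* encodes heparin-binding EGF-like growth factor. Its lowest, median and highest levels at 3 days were 11.6, 20.1 and 26.8 CPM in knockout mice and 6.51, 11.2 and 13.4 CPM in controls, with replicate 1 the only knockout below the highest control. At 7 days they were 32.2, 38.8 and 69.3 CPM against 13.9, 16.7 and 54.9 CPM, and 1 control, replicate 3, lay among the knockout mice. *Hbegf* rose by 0.96 at 3 days (SE 0.21, adjusted p = 0.0254) and by 0.89 at 7 days (SE 0.30, adjusted p = 0.024). Without control replicate 3 of day 7 the rise was 1.39 (adjusted p = 4.51e-06). The 7-day call was lost with the DESeq2 test (adjusted p = 0.0528), without knockout replicate 2 (0.70, adjusted p = 0.0753), and without control replicate 1, 4, 5 or 6 (0.75 to 0.78, adjusted p between 0.0604 and 0.0688). At 3 days it was lost without knockout replicate 3, 4 or 7 or control replicate 1, 2, 4 or 7 (0.87 to 0.99, adjusted p between 0.051 and 0.0651). Without the libraries rich in acinar markers *Hbegf* was past the threshold at neither day (0.89, adjusted p = 0.306, and 0.70, adjusted p = 0.137).

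*Tgfa*, the gene of transforming growth factor-α, lay at 5.68, 8.73 and 12.4 CPM in knockout mice and 7.26, 8.02 and 10.3 CPM in controls at 3 days, with the control range inside the knockout range. Its difference of 0.20 was not past the threshold (SE 0.20, adjusted p = 0.724). At 7 days it lay at 18.4, 22.2 and 23.4 CPM in knockout mice and at 5.59, 10.8 and 15 CPM in controls. All knockout mice were above all controls, and the rise was 1.04 on the log2 scale (SE 0.17, adjusted p = 5.9e-05).

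*Nrg1* encodes neuregulin 1, a ligand of *Erbb3*. At 3 days its levels were 25.5, 35.9 and 78.8 CPM in knockout mice and 19.1, 34.5 and 51.9 CPM in controls, and the groups overlapped widely (log2 fold change 0.49, SE 0.24, adjusted p = 0.376). At 7 days the knockout mice were at 32.8, 48.2 and 76.6 CPM and the controls at 7.7, 10.1 and 15.9 CPM, without overlap. *Nrg1* was higher by 2.29 on the log2 scale at 7 days (SE 0.20, adjusted p = 5.0e-08). The 7-day controls were the low group, since their range lay below those of both genotypes at 3 days. Of the 6 fibroblast markers, 2 were higher in knockout mice at 7 days, and the list summed to 878 to 1808 CPM in knockout mice and to 816 to 1326 CPM in controls. Its part in the *Nrg1* difference was not tested.

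*Egf* had few counts. Its median was 1.44 CPM in knockout mice and 1.87 CPM in controls at 3 days, and 1.03 and 0.738 CPM at 7 days, with between 2 and 22.5 counts in a library. The groups overlapped at both days, and its differences of -0.48 (SE 0.46, adjusted p = 0.713) and 0.09 (SE 0.49, adjusted p = 0.905) were not past the threshold.

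None of the receptors rose. *Egfr*, the receptor of *Areg*, had lowest, median and highest levels of 12.4, 13.6 and 19 CPM in knockout mice and 13.3, 17.9 and 21.8 CPM in controls at 3 days, and of 9.9, 11.7 and 14.7 CPM against 11.5, 15.2 and 17.8 CPM at 7 days. The groups overlapped at both days. Its log2 differences were -0.09 at 3 days (SE 0.14, adjusted p = 0.86) and -0.26 at 7 days (SE 0.14, adjusted p = 0.147), and without control replicate 4 of day 7 the latter was -0.37 (adjusted p = 0.0367).

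*Erbb2* was at 8.62, 12.3 and 18.5 CPM in knockout mice and at 17.6, 21 and 25.7 CPM in controls at 3 days, where replicate 6 was the only knockout within the control range. The difference of -0.67 was not past the threshold with edgeR (SE 0.17, adjusted p = 0.0635), and was past it with DESeq2 (adjusted p = 0.0088). At 7 days the levels were 8.4, 9.7 and 12.9 CPM against 18.3, 25.5 and 30.6 CPM, with every knockout below every control. *Erbb2* fell by 1.26 on the log2 scale (SE 0.14, adjusted p = 7.0e-07). Its exons overlap those of *Mien1* on the opposite strand, and no strand setting of the counting is stated. *Mien1* differed by 0.45 in the other direction at 7 days (SE 0.13, adjusted p = 0.0104).

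*Erbb3* had levels of 25.4, 52.1 and 60.3 CPM in knockout mice and 38.7, 68.8 and 96.3 CPM in controls at 3 days, with a difference of -0.40 that was not past the threshold (SE 0.22, adjusted p = 0.469). At 7 days it was at 50.7, 62.8 and 83.9 CPM in knockout mice and at 102, 115 and 129 CPM in controls. The groups did not overlap, and *Erbb3* fell by 0.81 on the log2 scale (SE 0.13, adjusted p = 4.2e-05). Part of the epithelial markers were also lower in the same mice. Of the 6 general epithelial markers 3 fell and 1 rose at 7 days, with sums of 2172 to 2504 CPM in knockout mice and 2715 to 3237 CPM in controls, and 4 of 5 enterocyte markers and 3 of 4 stem cell markers fell. Of 5 goblet cell markers 1 rose and 1 fell, and so did 1 and 1 of 4 tuft cell markers. Of 5 enteroendocrine markers 1 fell, and none of 6 Paneth cell markers was past the threshold. The part of these markers in the lower receptor levels was not tested.

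**Figure D2:**
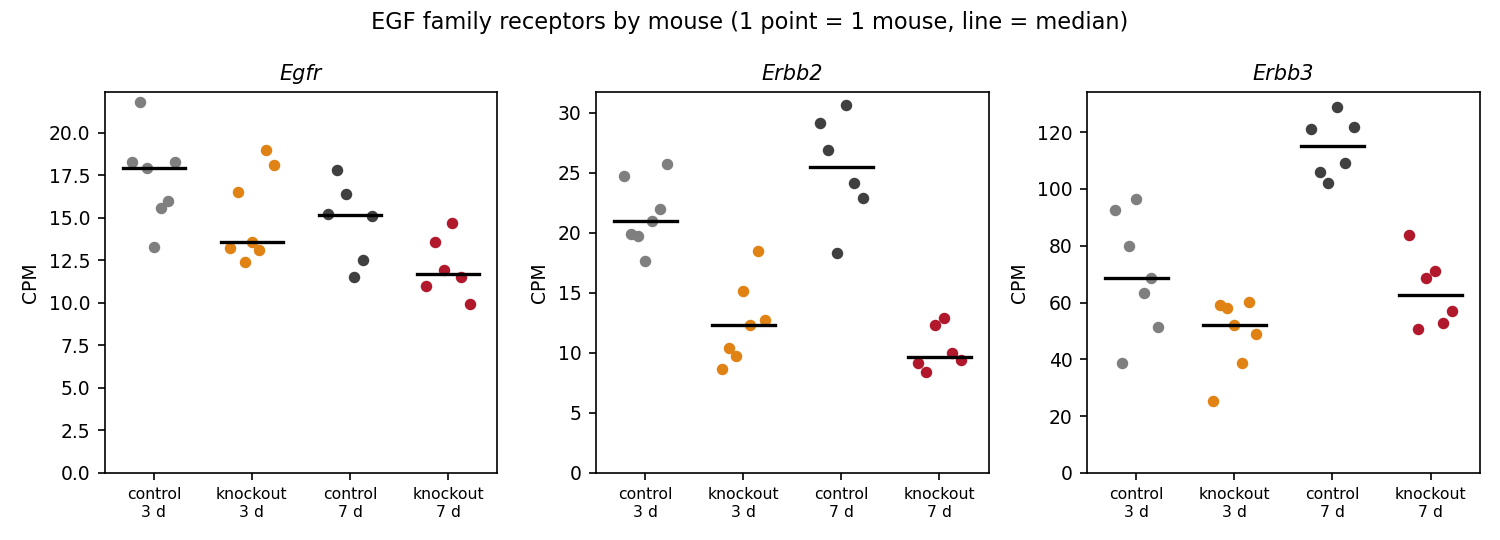
CPM of *Egfr*, *Erbb2* and *Erbb3* by genotype and day, with a point per mouse and a line at the median of each group. *Erbb2* and *Erbb3* of the 7-day knockout mice, at 8.4 to 12.9 and 50.7 to 83.9 CPM, sit below the 7-day controls at 18.3 to 30.6 and 102 to 129 CPM, while the *Egfr* groups overlap.

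**Figure D3:**
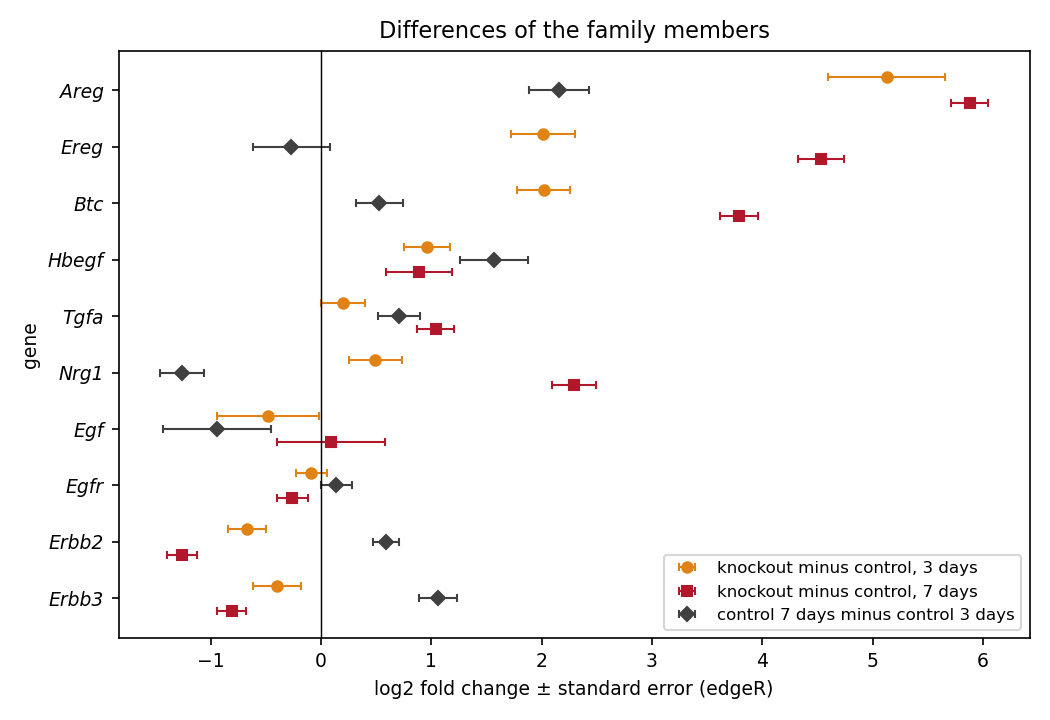
Log2 fold change ± SE from edgeR for the 10 members, for knockout minus control at 3 days (circles) and 7 days (squares) and for the controls of day 7 minus those of day 3 (diamonds). *Areg* has values of 5.13, 5.88 and 2.16, *Nrg1* is 2.29 in the 7-day genotype comparison and -1.26 between the controls, and *Erbb2* and *Erbb3* lie below 0 at both days and above it between the controls.

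The effect of the genotype was larger at 7 days than at 3 days for 4 of the 9 members other than *Areg*, as tested by an interaction term over the 26 libraries, which was past the threshold for 18.4% of all genes (8.64% higher). The difference of the log2 effects was 2.53 for *Ereg* (SE 0.39, adjusted p = 2.6e-05), 1.82 for *Nrg1* (SE 0.34, adjusted p = 2.5e-04), 1.79 for *Btc* (SE 0.31, adjusted p = 1.3e-04) and 0.86 for *Tgfa* (SE 0.27, adjusted p = 0.0213). Without the libraries rich in acinar markers the value of *Tgfa* was 0.80 and no longer past the threshold (adjusted p = 0.167). For *Hbegf* it was -0.06 (SE 0.39, adjusted p = 0.94). For *Erbb2* it was -0.57 (SE 0.22, adjusted p = 0.0746), and it was past the threshold with DESeq2 (-0.61, adjusted p = 0.0396) and without the libraries rich in Brunner gland or stomach markers (-0.72, adjusted p = 0.0234).

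Control mice also differed between the days. Their *Areg* levels entered the rises for which it was chosen, so its difference of 2.16 on the log2 scale between the 7-day and 3-day controls (SE 0.27) is again a description. Of the 9 other members 4 rose and 1 fell, where 36.0% of all genes were past the threshold (19.7% higher and 16.3% lower). *Hbegf* rose by 1.57 (SE 0.31, adjusted p = 9.3e-04), *Erbb3* by 1.06 (SE 0.17, adjusted p = 1.7e-04), *Tgfa* by 0.71 (SE 0.19, adjusted p = 0.00699) and *Erbb2* by 0.59 (SE 0.12, adjusted p = 0.00128). *Nrg1* fell by 1.26 (SE 0.20, adjusted p = 1.9e-04). The control groups did not overlap for *Areg*, *Hbegf*, *Erbb3* and *Nrg1*, as for 19.0% of all genes (3.94% with the 7-day controls above and 15.0% below). Overlap was judged on CPM, while the fits scale the libraries further. Mean CPM of the 7-day and 3-day controls were 25.3 and 21.5 for *Erbb2*, 10.5 and 8.23 for *Tgfa*, and 10.9 and 33.3 for *Nrg1*. By CPM alone the rises of *Erbb2* and *Tgfa* were smaller and the fall of *Nrg1* larger than in the fits. The part of the scaling in these calls was not tested. Without the libraries rich in acinar markers *Tgfa* (0.82, adjusted p = 0.0554) and *Erbb2* (0.47, adjusted p = 0.0643) were no longer past the threshold, and without those rich in Brunner gland or stomach markers *Tgfa* was not (0.54, adjusted p = 0.0528).

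Markers of several cell types also differed between the control groups. All 6 fibroblast markers and all 6 smooth muscle markers were lower in the 7-day controls, with median log2 fold changes of -0.88 and -0.92. The fibroblast sums were 816 to 1326 CPM against 1793 to 3299 CPM, without the further scaling used in the fits. Higher in the 7-day controls were 5 of 6 epithelial and 5 of 5 enterocyte markers. The part of these markers in the changes of the family members was not tested. The day and any sequencing batch that went with it cannot be told apart.

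Of the 5 further genes of the family, *Erbb4* was at 0 counts in all 26 libraries and *Nrg3* had at most 3 counts. *Epgn*, which encodes epigen and lies beside *Ereg*, was at 0 in all other groups and had at most 2 counts in the 7-day knockout mice. *Nrg4*, a neuregulin, was at 12.3, 13.1 and 15.2 CPM in knockout mice and 14, 21.1 and 26.7 CPM in controls at 7 days, and fell by 0.63 on the log2 scale (SE 0.14, adjusted p = 0.00169). *Nrg2* fell by 1.22 at 7 days (SE 0.41, adjusted p = 0.0234), at a median of 1.18 CPM in knockout mice and 2.06 CPM in controls. Neither was past the threshold at 3 days.

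The wider pathway was followed in lists of genes for the shedding of ligands, for adaptors and kinases, for feedback inhibitors and for genes that EGF receptor signalling is known to induce. Together with the further family members they held 75 genes, of which 72 were tested. At 3 days 1 of these rose and 1 fell (2.78%, where 1.43% of all genes were past the threshold), and the median log2 fold change was 0.07. *Atf3*, a stress-induced transcription factor, rose from a mean of 4.02 ± 1.45 CPM (SD, n = 7) to 9.56 ± 3.35 CPM (SD, n = 7), or by 1.37 on the log2 scale (SE 0.28, adjusted p = 0.0181). *Pik3r1*, the regulatory subunit of PI3 kinase, fell by 0.50 (SE 0.12, adjusted p = 0.04). This call was lost in 12 of 14 fits that left out 1 mouse (adjusted p up to 0.0954), with no filter on low counts (adjusted p = 0.0679) and without the libraries rich in acinar markers (adjusted p = 0.343). The *Atf3* call was kept with each mouse left out and was lost without the libraries rich in acinar markers (1.20, adjusted p = 0.34). The count of both directions was 8 without knockout replicate 1 and 8 with DESeq2.

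At 7 days 33 of the 72 genes rose and 11 fell (61.1%), with a median of 0.32 against -0.02 over all genes. Over all genes 38.5% were past the threshold (19.7% higher and 18.8% lower). None of the 7 genes of ligand shedding was past the threshold. *Adam17*, the main sheddase of *Areg*, was at 41.6 ± 2.82 CPM in knockout mice (SD, n = 6) and 40.5 ± 5.2 CPM in controls (SD, n = 6), a difference of 0.07 (SE 0.09, adjusted p = 0.599). Of the 24 adaptors and kinases 10 rose and 4 fell, and *Pik3r1* fell by 1.26 (SE 0.09, adjusted p = 5.5e-09).

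Of the 18 feedback inhibitors 10 rose and 5 fell at 7 days, where 19.7% of all genes were higher and 18.8% lower. *Dusp4*, a phosphatase of MAP kinases, went from 1.73 ± 0.554 CPM in controls to 21.7 ± 4.52 CPM in knockout mice (SD, n = 6 each), or up by 3.66 on the log2 scale (SE 0.20, adjusted p = 1.0e-10). The falls were led by *Lrig3*, a transmembrane protein related to the receptor inhibitor *Lrig1*, which went from 50.9 ± 8.53 to 11.6 ± 0.693 CPM (SD, n = 6 each) and fell by 2.11 (SE 0.13, adjusted p = 4.4e-10). *Cbl*, a ubiquitin ligase that marks the receptors for breakdown, fell by 0.56 (SE 0.09, adjusted p = 3.5e-05), and *Socs3*, an inhibitor of cytokine signalling, by 0.60 (SE 0.21, adjusted p = 0.0282).

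Of the 21 induced genes 13 rose, none fell and 8 were not past the threshold at 7 days, where 19.7% of all genes were higher and 18.8% lower. The median log2 fold change of the list was 0.85. *Plaur*, the urokinase receptor, rose from 0.686 ± 0.528 to 18.5 ± 6.12 CPM (SD, n = 6 each), a change of 4.76 (SE 0.37, adjusted p = 8.2e-09). *Atf3* rose by 3.21 (SE 0.40, adjusted p = 3.1e-06) and *Phlda1* by 2.20 (SE 0.21, adjusted p = 1.2e-07). Many of these genes, *Atf3* among them, also respond to other stimuli, and the activity of the receptors was not measured by these libraries. The effect differed between the days for 12 of the 21 genes, where 18.4% of all genes differed (8.64% upwards and 9.74% downwards). It had moved upwards at 7 days in 10 of them and downwards in 2. These 2 were *Fos* (-1.46, SE 0.46, adjusted p = 0.0263) and *Junb* (-0.67, SE 0.23, adjusted p = 0.0383). Their knockout differences at 7 days, -0.47 (adjusted p = 0.0596) and -0.21 (adjusted p = 0.257), were not past the threshold.

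**Figure D4:**
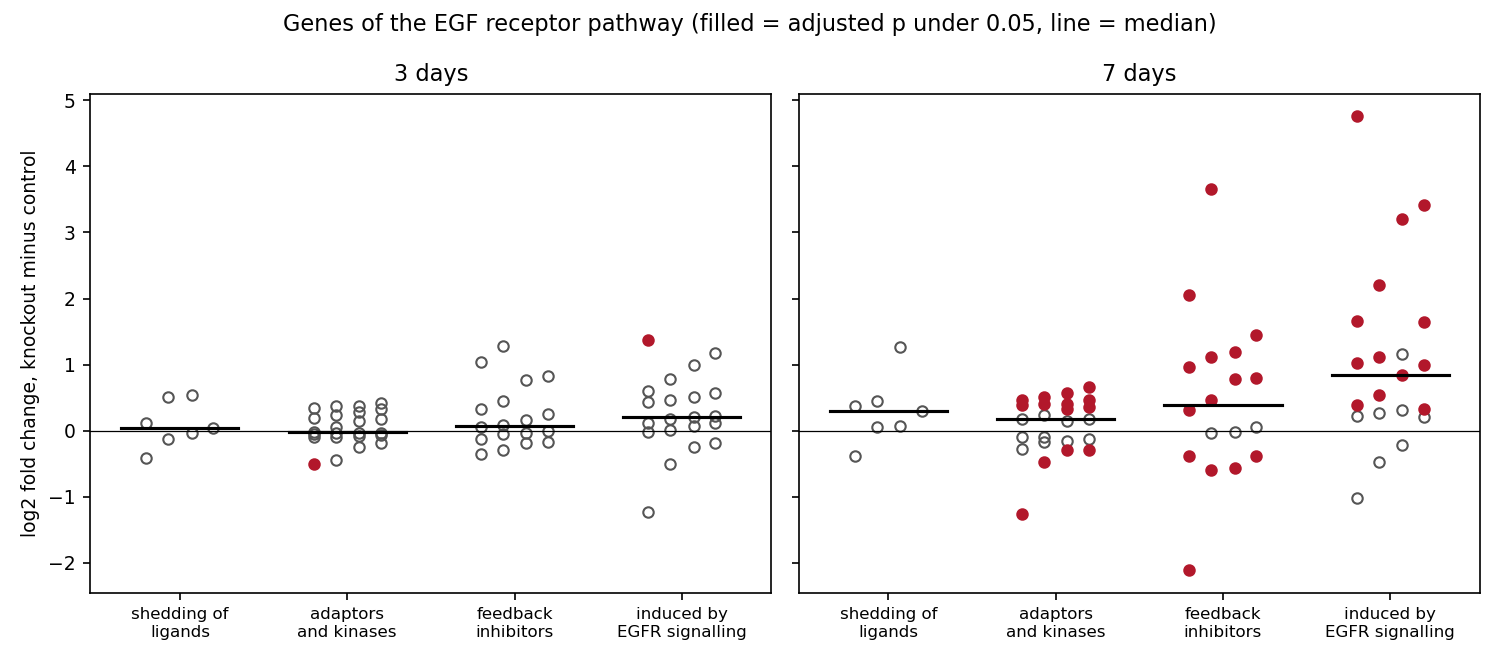
Log2 fold change of knockout minus control at 3 days (left) and 7 days (right) for the tested genes of 4 pathway lists, with a point per gene, filled where the adjusted p was under 0.05, and a line at the median. At 3 days 2 points are filled, and at 7 days the medians run from 0.17 for adaptors and kinases to 0.85 for induced genes, with *Plaur* highest at 4.76 and *Lrig3* lowest at -2.11.

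The genes whose levels ran closest to those of *Areg* were found by the root mean square difference of centred log2 CPM over the 26 libraries, among 19604 genes. The nearest were *Trib3* (0.89), a pseudokinase gene, *Acta1* (0.92), which encodes skeletal muscle actin, *Gdf9* (0.94) and *Gdf15* (1.21), which encode factors of the TGF-β superfamily, and *Rin1* (1.21), a RAS effector. *Trib3* had group medians of 97.4 CPM in knockout mice and 4.37 CPM in controls at 3 days, and of 280 and 10.6 CPM at 7 days. The nearest family members were *Btc* (1.55, at place 17) and *Ereg* (1.63, at place 22). *Hbegf* came at place 236 (2.34) and *Tgfa* at place 603 (2.57). *Areg* had been picked for its rise in these same libraries. Genes with large rises in knockout mice therefore come near it, and these places are a description only.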

How the data were processed

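RNA-seq libraries (QuantSeq 3′ mRNA) of the proximal SI of 26 mice were analysed here. The authors deposited estimated counts for each gene, without normalization. The authors trimmed the reads with cutadapt 2.10, aligned them to GRCm38 with Subread and counted them with featureCounts 2.0.1, dividing reads that overlapped several genes into fractions. No strand option is stated. The 92 spike-in entries were at 0. The design had been written for whole counts, and as 95.0% of the values were whole, all were rounded before fitting. Groups follow the sample labels, and the level of the targeted gene is not reported here. The study used littermates as controls, but which mice shared a litter or a batch is not given in the sources used here. Litter was therefore not part of the fits, and p-values measure the spread between these libraries.

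A gene was left out where most libraries of either group had no count for it. The remaining genes were tested in R 4.3.3 with edgeR 4.0.16 by quasi-likelihood (TMM, 1 fit per comparison, Benjamini-Hochberg adjusted p under 0.05 over all genes). SE was obtained by dividing the log2 fold change by the root of its F statistic. CPM are counts over the library total, a unit the authors also deposited and which was not used further, and the floor of a library was set at 3 counts. Coordinates and overlapping exons came from an annotation of GRCm38.

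The members, the pathway and marker lists and the tests were chosen with earlier results of these data known. All further family members are named, and of the other 4 pathway lists, at each day, the 4 strongest rises and the 4 strongest falls that passed the threshold and averaged 10 counts or more. *Adam17*, *Lrig1*, *Fos* and *Junb* were named after their values were seen. As alternatives, DESeq2 1.42.0 (Wald test), edgeR with those size factors, no filter or filterByExpr, all 26 libraries in 1 fit, unrounded counts, the replicate number as a block and leaving out each mouse were tried. Leaving out libraries with over 1000 CPM of Brunner gland and stomach markers, or of acinar markers, was an alternative chosen after seeing the data. The fits were first tested on simulated data.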

Additional observations from a re-analysis of the deposited data

Results flagged for a closer look

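Levels of a mouse far from the rest of its group were looked for in the 40 groups of the 10 members, and 4 were found, where chance gives about 2 (1 in 20). *Hbegf* was at 54.9 CPM in control replicate 3 of day 7, with the next mouse at 22.8 CPM. *Btc* was at 9.41 CPM in control replicate 5 of day 3 and at 13.7 CPM in control replicate 2 of day 7, against 6.74 and 7.42 CPM in the next mice. Both are libraries with high Brunner gland markers, whose part in these values was not tested. Knockout replicate 5 of day 7 had 2.47 CPM of *Egf*, with the next mouse at 1.23 CPM.

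By the interaction term, knockout and control mice differed to another extent at 7 days than at 3 days for the members *Ereg* (2.53 on the log2 scale), *Nrg1* (1.82), *Btc* (1.79) and *Tgfa* (0.86). Among the pathway genes named, the difference was 3.58 for *Plaur*, 2.41 for *Dusp4*, 1.85 for *Atf3* and 1.62 for *Phlda1*. It was -0.37 for *Cbl*, -0.67 for *Junb*, -0.74 for *Pik3r1*, -1.46 for *Fos* and -2.34 for *Lrig3*.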

How the results depend on the processing

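Of 607 values computed under the alternatives, 573 kept their direction and their side of the threshold, 20 were no longer past it, 7 came past it and 7 changed direction. The genotype effects of *Areg* and their change between days had no threshold. They were counted as kept where the value moved by less than the SD of its log2 CPM within groups. The members called at 3 days (3) varied between 2 and 4, and those at 7 days (7) between 6 and 7. The pathway genes called at 3 days (2) were the least stable count, with 8 by DESeq2, 9 with all 26 libraries in 1 fit, 1 without a filter on low counts, 1 with the replicate block, 5 without the libraries rich in Brunner gland and stomach markers, 0 without those rich in acinar markers, and 1 to 8 with each mouse left out, 8 being without knockout replicate 1. The cause of these shifts was not tested. Direction changed for *Egf* at 7 days, whose values ran from -0.27 to 0.61 with each mouse left out, without knockout replicate 5 (-0.27), without control replicates 2, 3 or 6 (-0.08, -0.04 and -0.10) and without the libraries rich in Brunner gland and stomach markers (-0.08), for *Ereg* between the control groups without the libraries rich in acinar markers (0.12), and for the change of *Hbegf* between days with the replicate block (0.13), none of them past the threshold. Libraries with the same replicate number did not deviate together (at 3 days r ran from -0.28 to 0.30, at 7 days from -0.11 to 0.23). The number was therefore not used to pair them, but this check cannot show whether it marks a litter or a batch. With the number as a block, 2 members were called at 3 days, *Hbegf* being lost (adjusted p = 0.0887), and 7 at 7 days. Likewise 40 pathway genes were called at 7 days, and 4 members for the change between days. The block also lost the *Pik3r1* call at 3 days (adjusted p = 0.174). *Egf*, *Nrg2*, *Nrg3* and *Epgn* had few counts, and how far depth or the spread between mice limits them was not tested.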
